A study of Mus musculus with 8 samples.

Results

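The neurogenic basic helix-loop-helix (bHLH) and Hes factors described here are 8 transcription factor genes, chosen by name from the 26229 genes of the table. The rule uses no measured value, but the list was drawn up with earlier results of these data known. They are the proneural factor Neurog2, the neuronal differentiation factors Neurod1, Neurod2, Neurod6 and Bhlhe22, the Notch effectors Hes1 and Hes5, and Hes6. RNA of cultured mouse cortical neurons, isolated at E16.5 and kept in culture over 12 days, was sequenced in 4 libraries labelled H2BE-KO/mCherry-KI and 4 labelled WT, each called a biological replicate in the labels. H2BE is a variant of the core histone H2B encoded by H2bc21, and the knockout carries an mCherry reporter knocked in. The labels give no strain, sex or number of animals, and primary cultures of this kind can hold projection neurons, interneurons and glia. The design asks how loss of H2BE changes the transcripts of these neurons.

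Proneural factors such as Neurog2 start neuronal differentiation in cortical progenitors, and in the mouse cortex the Neurod factors and Bhlhe22 act after them in glutamatergic neurons. All of them bind E-boxes, the letters CANNTG, usually as dimers with E proteins. Hes1 and Hes5 are repressors induced by Notch signalling through Rbpj. They hold progenitors back from differentiation by repressing proneural genes, and they are also expressed in astrocytes. Hes6 resembles them in sequence, is known for counteracting Hes1, and accompanies neuronal differentiation.

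The authors' deposited table is the source of every fold change, standard error (SE), mean normalized count and adjusted p given here. It is a DESeq2 comparison of 4 and 4 libraries adjusted by the Benjamini-Hochberg method over 18085 tested genes. The header names no direction. It was read from the targeted gene, whose level in H2BE-KO was then 9.12% of WT (log2 fold change -3.45, SE 0.19, adjusted p = 4.49e-68). If that reading were wrong, every rise and fall below would swap. No values per library were used here, so the SE is the measure of spread, depth per library is unknown, and group levels are those implied by the mean over all libraries and the fold change, with 4 libraries of equal weight in each genotype. Summed over genes, the mean normalized counts came to 3.96e+07.

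Most of the 8 factors differed between the genotypes, and not all in the same direction. Hes1, Bhlhe22, Neurod2, Neurod6 and Hes6 rose in H2BE-KO neurons, Neurog2 fell, and Neurod1 and Hes5 did not pass the threshold of an adjusted p under 0.05. That is 5 of 8 called higher and 1 of 8 called lower, where 11.0% of all tested genes were called higher, 10.9% lower and 21.8% in either direction. All 8 passed the authors' filter on low counts. The median log2 fold change of the 8 was 1.00, against -0.02 over all tested genes, and 5 of them differed by at least 1 on the log2 scale in either direction, as did 14.8% of tested genes. Calls were more frequent at higher counts: 4.49% of genes were called higher and 5.10% lower at mean counts under 100, where 3 of the factors lie, against 15.6% and 15.0% at mean counts of 1000 and above, where another 3 lie.

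The proneural gene Neurog2, at the head of the cascade, was the one factor that fell. It had an implied mean of 21.7 normalized counts in H2BE-KO and 79.8 in WT neurons, so the knockout level was 27.2% of WT (95% interval 13.9 to 53.3%). On the log2 scale the authors' deposited table put the change at -1.88 (SE 0.49, adjusted p = 0.00167). The gene occupies bases 127633135 to 127635631 of chromosome 3 (GRCm38, plus strand) and is 31.4 Mb from H2bc21 on the same chromosome. Its 2 exons span 2227 bases. Per kb of exon its level was the lowest of the 8 factors in H2BE-KO, at 9.76 counts, and sixth from the top in WT, at 35.8.

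The neuronal differentiation factors rose with the exception of Neurod1. Bhlhe22, a bHLH repressor of cortical projection neurons, had an implied mean of 4087 normalized counts in H2BE-KO and 1605 in WT, a 2.55-fold rise (95% interval 1.76 to 3.69). Its log2 fold change in the authors' deposited table was 1.35 (SE 0.27, adjusted p = 2.02e-05). Neurod2, which in the mouse acts in maturing glutamatergic neurons, had 3357 counts in H2BE-KO and 1543 in WT. This was a 2.18-fold rise (95% interval 1.63 to 2.90, adjusted p = 4.37e-06 in the authors' deposited table).

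Neurod6, a marker of cortical glutamatergic neurons also known as Nex, was the most abundant factor. It had 9126 counts in H2BE-KO and 4944 in WT, a 1.85-fold rise (95% interval 1.28 to 2.66, adjusted p = 0.00743 in the authors' deposited table). The intervals of Bhlhe22, Neurod2 and Neurod6 overlap one another, and the differences between these genes were not tested, since values per library are needed for that. Neurod1, which acts between Neurog2 and the other Neurod factors, had 182 counts in H2BE-KO and 201 in WT. Its log2 fold change was -0.14 (SE 0.39, adjusted p = 0.840), and its 95% interval, -0.90 to 0.62, runs from 0.535 times to 1.54 times the WT level. Of its exon bases, 7.4% are shared with Cerkl on the same strand and 5.6% with a lincRNA on the other strand, so some of its reads may not be its own.

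Of the Notch effectors, Hes1 showed the greatest rise among the 8 factors. It had an implied mean of 95.5 normalized counts in H2BE-KO and 21.2 in WT, a 4.50-fold rise (95% interval 2.66 to 7.61). In the authors' deposited table its log2 fold change was 2.17 (SE 0.39, adjusted p = 1.07e-06), the smallest adjusted p of the 8. Hes5 had 17.7 counts in H2BE-KO and 7.86 in WT. Its log2 fold change of 1.17 (SE 0.75, adjusted p = 0.276) had an interval that includes 0 as well as the value of Hes1, so neither a rise nor the absence of one is shown. Of tested genes with a mean count within 1.5-fold of its own, 8.31% were called. An antisense transcript shares 31.8% of the exon bases of Hes5, and the use of strand in counting is not given in the sources used here, so even this level is uncertain.

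Hes6 rose by little but with a small error. It had 995 counts in H2BE-KO and 739 in WT, a 1.35-fold rise (95% interval 1.16 to 1.56, adjusted p = 0.00121 in the authors' deposited table). Its interval on the log2 scale, 0.21 to 0.65, lies below that of Hes1, 1.41 to 2.93. Hes1 and Hes6 therefore moved in the same direction. Their normal intervals do not overlap, but the difference between these genes was not tested, since values per library are needed for that.

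**Figure D1:**
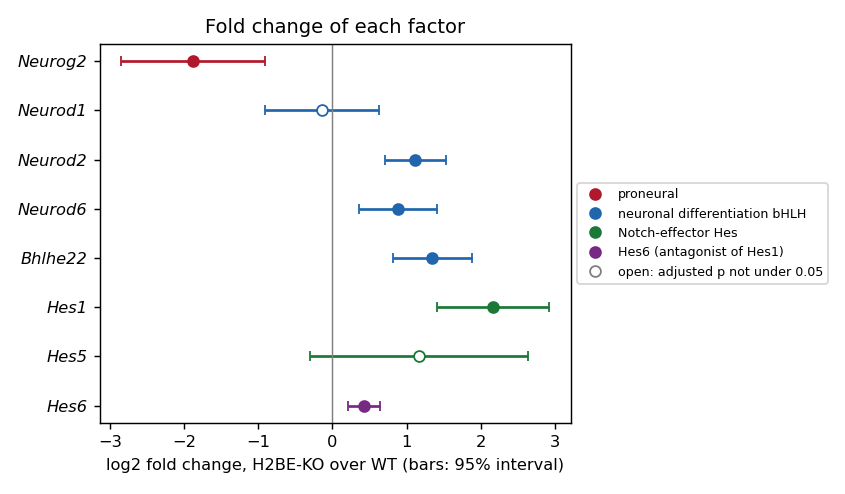
Log2 fold change of each factor, H2BE-KO over WT, with 95% intervals, coloured by role; open circles did not pass an adjusted p of 0.05. Neurog2 lies left of 0 at -1.88, Hes1 farthest right at 2.17, and the intervals of Neurod1 and Hes5 cross 0.

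Scaled by exon length, the factors fell into an abundant and a scarce set that was the same in both genotypes. The abundant set was Neurod6, Bhlhe22, Neurod2 and Hes6, with implied levels of 4245, 1222, 1068 and 550 counts per kb in H2BE-KO and 2299, 480, 491 and 408 counts per kb in WT. The scarce set was Neurod1, Hes1, Hes5 and Neurog2, with 66.7, 46.9, 13.0 and 9.76 counts per kb in H2BE-KO and 73.5, 10.4, 5.76 and 35.8 counts per kb in WT. The error of a single level was not analysed here, so neighbours in this order, such as Bhlhe22 and Neurod2, cannot be separated. Averaged over both genotypes, Neurod6 lay above 96.9% of tested genes in counts per kb, and Neurog2 and Hes1 above 31.5% and 34.0%.

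Within the scarce set the order of Hes1 and Neurog2 differed between the genotypes. Hes1 stood at 4.80 times the per-kb level of Neurog2 in H2BE-KO and at 0.291 times in WT. Neurod6 made up 64.2% of the summed per-kb level of the 5 proneural and differentiation factors in H2BE-KO and 68.0% in WT. Hes6 exceeded Hes1 in counts per kb 11.7-fold in H2BE-KO and 39.2-fold in WT. In whole cultures such as these, fewer cells of a type and less RNA per cell cannot be told apart.

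**Figure D2:**
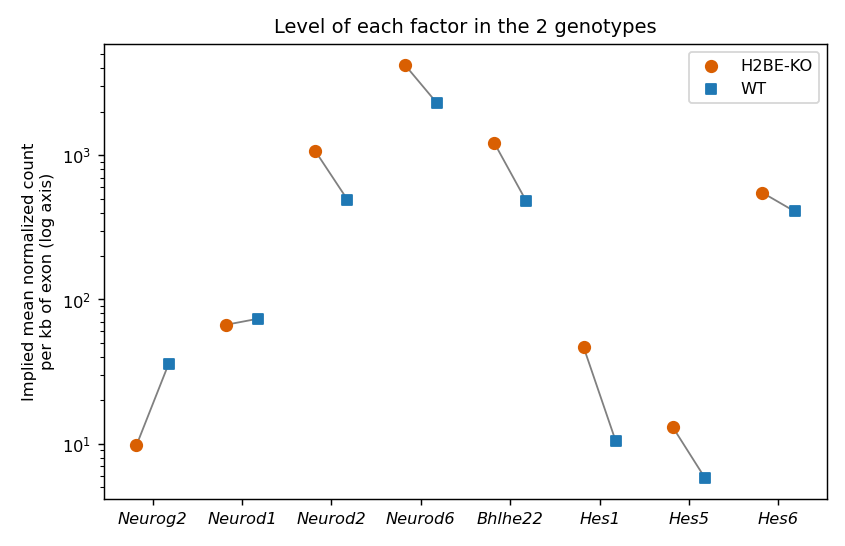
Implied mean normalized count per kb of exon for each factor on a log axis, H2BE-KO as circles and WT as squares, joined by a line; errors per genotype were not analysed here. Levels run from 5.76 for Hes5 in WT to 4245 for Neurod6 in H2BE-KO, and the line slopes the other way for Neurog2 and slightly for Neurod1.

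Most of the factors had a larger error than other genes of their count. The SE of a fold change carries the spread among the libraries of both genotypes, and 7 of the 8 factors had an SE above the median of tested genes with a mean count within 1.5-fold of their own. For Bhlhe22 and Neurod6 the SE was 2.17 and 2.16 times that median, above 94.6% and 93.6% of genes of like count. Neurod2 stood at 1.68 times and Neurod1 at 1.62 times. Hes1 was close to its median, at 1.03 times, and Hes6 was the exception at 0.735 times. Among marker lists, the median ratio was 1.96 for glutamatergic projection neurons, 2.62 for GABAergic interneurons, 1.94 for astrocytes and 1.80 for progenitors. It was 1.45 for microglia markers, 1.32 for oligodendrocyte lineage markers and 0.988 for general neuron markers. Lists not chosen by cell type overlapped these: 1.46 for cortical Neurog2 and Neurod targets and 1.36 for other neural bHLH genes. Other Hes, Hey and Tle genes stood at 1.23 and Notch ligands at 1.17. Notch processing genes stood at 1.06, and receptor and nuclear complex genes at 0.979. The reason for the larger errors was not tested.

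**Figure D3:**
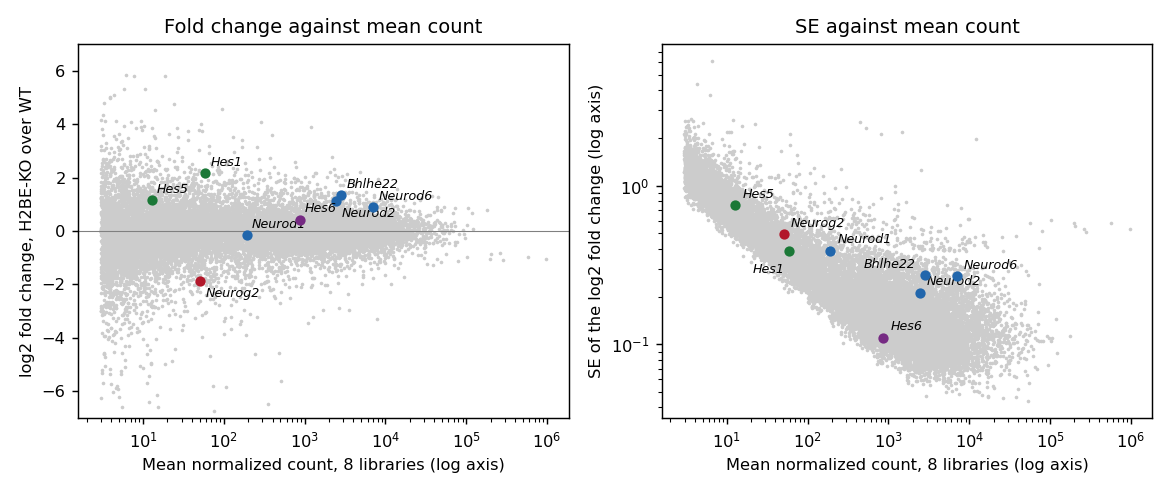
Left, log2 fold change (H2BE-KO over WT) and right, its SE, against the mean normalized count over 8 libraries (log axis) for all tested genes in grey and the 8 factors in colour (red, proneural; blue, neuronal differentiation; green, Notch effectors; purple, Hes6); 3 genes beyond ±7 are not drawn on the left. Hes1 and Neurog2 lie toward the upper and lower edge of genes of their count, and Bhlhe22, Neurod6 and Neurod2 lie high in the SE panel.

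The promoters were examined for the letters that these factors and Rbpj bind, because factors of these families are known to regulate one another. RefSeq windows of 300 bases (250 before to 50 after the start, build GRCm38.p6) were matched by symbol for 6 of the 8 genes. Hes1 and Bhlhe22 had no window, so their promoters were not searched. Both strands were searched. Matches are a description of the letters, not of binding. An E-box, CANNTG, occurs in 72.3% of all 32817 windows, so a match says little by itself. Neurod2 had 3, Neurod6 had 2, Hes5 and Neurod1 had 1 each, the 2 windows of Hes6 had 3 and 1, and Neurog2 had 0. One of the 3 in Neurod2 has the form CAGATG, found in 17.2% of all windows. The upstream parts of Neurod2 and Neurod6, the 2 Neurod genes that rose together, are shown with E-boxes in capitals. The first is chr11:98329649-98329895 and the second chr6:55681264-55681513, both on the minus strand and read 5′ to 3′.
Neurod2: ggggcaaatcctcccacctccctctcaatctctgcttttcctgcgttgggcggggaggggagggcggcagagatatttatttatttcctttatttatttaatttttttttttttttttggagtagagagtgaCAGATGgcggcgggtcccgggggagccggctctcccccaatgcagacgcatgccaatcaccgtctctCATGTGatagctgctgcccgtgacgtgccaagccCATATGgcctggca
Neurod6: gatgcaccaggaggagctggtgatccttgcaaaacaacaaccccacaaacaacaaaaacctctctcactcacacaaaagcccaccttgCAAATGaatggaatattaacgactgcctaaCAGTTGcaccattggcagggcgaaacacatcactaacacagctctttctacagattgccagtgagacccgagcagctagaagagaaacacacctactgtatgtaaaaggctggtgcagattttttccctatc
The 2 stretches hold different E-boxes and differ in composition, with 53.0% and 46.0% G or C.

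The core of the Rbpj site, GTGGGAA, occurs in 6.39% of all windows on either strand. Among the factors with a window, Hes5 held it, in 2 copies of opposite orientation. Whether Hes1, the other Notch effector, holds it is not known from this search, which had no Hes1 window. The Hes5 copies are shown because Hes5 is a Notch effector. The sites are given with the match in capitals, on the plus strand of chromosome 4, at chr4:154960685-154960714 and chr4:154960828-154960857.
Hes5 distal site: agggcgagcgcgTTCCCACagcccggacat
Hes5 proximal site: tggccgccgagtGTGGGAAcggccgcggcg
The first lies 219 bases and the second 76 bases before the RefSeq start. The motif CACNAG, an N-box bound by Hes repressors, occurs in 42.5% of windows and was found once in Neurog2, once in Neurod1, 3 times in Neurod6, in 0 and 2 copies in the windows of Hes6, and in 0 copies in Neurod2 and Hes5.

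The other genes of the Notch pathway were called higher about as often as genes at large. The lists of Notch ligands, receptors, processing genes and other Hes, Hey and Tle factors held 58 tested genes, of which 8 (13.8%) were called higher and 4 (6.90%) lower, where 11.0% of all tested genes were called higher and 10.9% lower. Counting each gene once, these lists together with those of other neural bHLH factors and cortical target genes held 101 tested genes besides the 8, of which 17 (16.8%) were called higher and 9 (8.91%) lower. Their median log2 fold change was 0.19. Among 8 Notch ligand genes 1 was called higher, Dll4, whose log2 value was 0.82 (SE 0.32, adjusted p = 0.0486). Dll1, the main ligand of neurogenic cells, was at 0.16 (SE 0.16, adjusted p = 0.526). Of 12 receptor and nuclear complex genes 1 was called higher, the coactivator gene Maml2 at 1.12 (SE 0.32, adjusted p = 0.00457). Notch1 was at 1.06 (SE 0.46, adjusted p = 0.0850) and Rbpj at -0.31 (SE 0.14, adjusted p = 0.107), both short of the threshold. These values are from the authors' deposited table.

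Genes that process or modify Notch were called in both directions, 5 higher and 4 lower of 29. That is 17.2% and 13.8%, against 11.0% and 10.9% of all tested genes. In the authors' deposited table the ubiquitin ligase gene Neurl1b rose by 0.79 on the log2 scale (SE 0.10, adjusted p = 9.73e-12). Adam10, the gene of the protease that cleaves the bound receptor, rose to 0.85 (SE 0.17, adjusted p = 1.02e-05), and Aph1b of the γ-secretase complex to 0.47 (SE 0.10). Numb, the gene of a Notch inhibitor, fell to -1.11 (SE 0.26, adjusted p = 3.57e-04), and Psenen, another γ-secretase gene, to -0.58 (SE 0.17, adjusted p = 0.00462). The median of these 29 genes was 0.14. Of 9 other Hes, Hey and Tle genes 1 was called higher, the co-repressor gene Tle4 at 2.20 (SE 0.39, adjusted p = 1.07e-06), which is also a marker of deep-layer neurons. The Notch targets Hey1, at 0.36 (SE 0.17, adjusted p = 0.119), and Nrarp, at 0.82 (SE 0.91, adjusted p = 0.572), were not called, and Nrarp had a mean count of 9.15.

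Other neural bHLH genes and their partners gave 1 higher and 2 lower call among 19 tested genes, or 5.26% and 10.5%, against 11.0% and 10.9% of all tested genes. Their median log2 fold change was 0.20. The lower calls were 2 of the 3 E-protein genes, whose products pair with the neurogenic factors. Tcf12 was at -0.98 (SE 0.21, adjusted p = 4.75e-05) and Tcf4 at -0.54 (SE 0.17, adjusted p = 0.0125) in the authors' deposited table, while the third, Tcf3, was at -0.09 (SE 0.14, adjusted p = 0.699). The higher call was Id4, a gene of the Id proteins, which capture E proteins, at 1.26 (SE 0.37, adjusted p = 0.00468). Neurod4, Atoh7, Bhlhe23 and Ptf1a had mean counts too low to be tested. No entry was found by symbol for Neurog1, Neurog3, Atoh1, Olig3 and Hand2.

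Genes known as targets of Neurog2 or the Neurod factors in mouse cortex gave 8 higher and 3 lower calls among 27, with a median log2 fold change of 0.33. This is 29.6% higher and 11.1% lower, against 11.0% and 10.9% of all tested genes. Tbr1, a transcription factor gene of early projection neurons, was at 1.90 (SE 0.28, adjusted p = 1.94e-09), Dcx, the gene of the migration protein doublecortin, at 1.32 (SE 0.21), and Elavl4, the gene of a neuronal RNA-binding protein, at 0.64 (SE 0.13) in the authors' deposited table. Eomes, the transcription factor gene of intermediate progenitors, had a mean count of 106 and rose to 2.52 (SE 0.89, adjusted p = 0.0254). Rnd2, a gene of neuronal migration that Neurog2 activates directly in the mouse, fell to -1.13 (SE 0.19, adjusted p = 1.95e-07). The lower calls also included the guidance receptor gene Nrp1 at -0.71 (SE 0.18) and Gadd45g at -0.60 (SE 0.22, adjusted p = 0.0287). The other higher calls were Sox11 at 1.06 (SE 0.23), Sox4 at 1.04 (SE 0.26), Ebf3 at 1.84 (SE 0.49) and Ebf2 at 5.83 (SE 1.36). Ebf2 had a mean count of 6.15. The other 16 genes of the list, Dll1 among them, were not called. Neurog2 and Rnd2 fell while Eomes and Tbr1, which follow Neurog2 in the cascade, rose. Whether any of these changes follows from that of Neurog2 was not tested.

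Markers of projection neurons and interneurons were called more often than genes at large, of which 11.0% were called higher and 10.9% lower. Of 23 glutamatergic projection neuron markers other than Neurod2, Neurod6 and Bhlhe22, 14 (60.9%) were called higher and 2 (8.70%) lower. Their median log2 fold change was 0.78. Their summed implied level was 110157 normalized counts in H2BE-KO and 72668 in WT, 1.52 times. Etv1 (1.98), Ldb2 (2.76), Lmo3 (0.97) and Nrgn (2.05) had the smallest adjusted p of that list beside Tbr1 in the authors' deposited table. Neurod6, Neurod2 and Bhlhe22, at 0.88, 1.12 and 1.35, lay above that list's median and within its range. Of 26 GABAergic interneuron markers 13 (50%) were called lower and 0 higher by DESeq2 (16 and 0 at an unadjusted p under 0.05). Of the 26, 3 had a positive value, and the median was -0.97. Kcnip1 (-1.48), Npy (-2.89), Cck (-2.03) and Lhx6 (-1.26) had the smallest adjusted p in the authors' deposited table. Their summed level, over the 26 genes, was 122581 counts in H2BE-KO and 218958 in WT. The part of these shifts in the rise of the neuronal factors was not tested.

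Progenitor and astrocyte markers are given beside Hes1 and Hes5, which both cell types express. Of all tested genes, 11.0% were called higher and 10.9% lower. Of 24 radial glia and intermediate progenitor markers 2 (8.33%) were called higher and 2 (8.33%) lower (7 and 3 at an unadjusted p under 0.05). The median log2 fold change of the 24 was 0.36. Their summed level was 26448 counts in H2BE-KO and 27463 in WT. Of these, Ptprz1 alone gave 5636 counts in H2BE-KO and 10234 in WT, so the sum leans on this gene. Of the 24 markers, 14 had a positive log2 fold change. The higher calls were Eomes and Prom1 (1.26, SE 0.39). The lower calls were Sox3, a progenitor transcription factor gene, at -1.90 (SE 0.37, adjusted p = 1.25e-05 in the authors' deposited table), close in size to Neurog2, and Ptprz1 at -0.86 (SE 0.26). The proliferation genes Mki67 and Top2a had mean counts of 35.8 and 32.3 and were not called. Of 19 astrocyte markers 4 (21.1%) were called higher and 0 lower by DESeq2, namely Slc1a2 (0.93), Glul (0.72), Aldoc (2.04, SE 0.63) and Id4, with a list median of 0.87. At an unadjusted p under 0.05 these counts were 9 higher and 1 lower, the lower one being Sox9 at -0.65 (SE 0.31, adjusted p = 0.117). The summed astrocyte level was 35544 counts in H2BE-KO and 23195 in WT, 1.53 times. Abundant genes weigh most in this sum, and single astrocyte markers ran from 0.638 times WT (Sox9) to 4.11 times (Aldoc). The part of astrocytes in the rise of Hes1 was not tested.

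The remaining lists describe the cultures, beside the 11.0% of all tested genes called higher and 10.9% called lower. General neuron markers were abundant, with summed levels of 512132 counts in H2BE-KO and 448124 in WT. Of 14 such markers, 6 (42.9%) were called higher and 1 (7.14%) lower. The smallest adjusted p among them belonged to Mapt (0.68), Tubb3 (0.74), Gap43 (0.33) and Rbfox3 (0.72) beside Elavl4. Microglia and macrophage markers were scarce, with 612 counts in H2BE-KO and 1421 in WT. Of 15 such markers, 7 (46.7%) were called lower and 0 higher by DESeq2 (8 and 0 at an unadjusted p under 0.05). The calls were led by Cd68 (-2.29), Csf1r (-3.09), Lyz2 (-2.25) and Tyrobp (-4.05). Oligodendrocyte lineage markers gave 2 higher calls, Mog (0.99) and Cnp (0.51), and 2 lower, Lhfpl3 (-0.76) and Ugt8a (-1.03), of 10 (20% each way). The defining gene Sox10 had a mean count of 0.294.

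**Figure D4:**
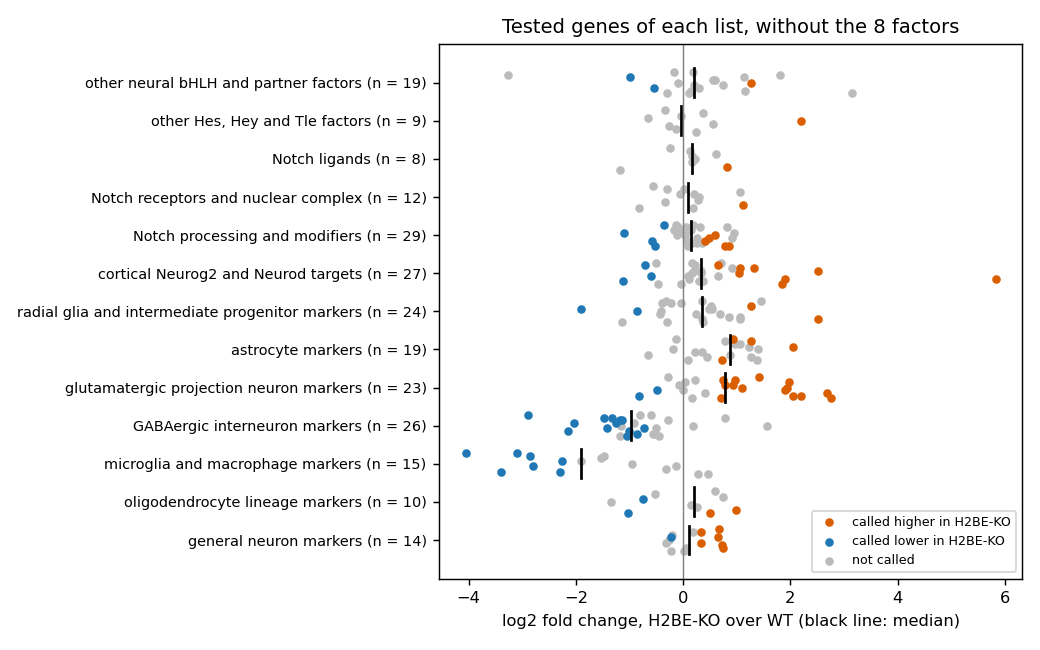
Log2 fold change (H2BE-KO over WT) of each tested gene of the pathway and cell type lists, without the 8 factors; orange points were called higher, blue lower and grey not called, and the black line is the list's median. The lists of Notch ligands, receptors and processing genes centre near 0 (medians 0.10 to 0.16). Other Hes, Hey and Tle factors centre at -0.04, projection neuron markers at 0.78 and interneuron markers at -0.97.

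In position the factors share little. They lie on 7 chromosomes, with Neurog2 and Bhlhe22 both on chromosome 3, and Bhlhe22 is 78.2 Mb from H2bc21. Within 0.5 Mb of the 8 genes there were 93 other tested genes, of which 14 (15.1%) were called higher and 9 (9.68%) lower, against 11.0% and 10.9% of all tested genes. Beside Hes1, the neighbour Tmem44 was called higher (1.29, SE 0.23, adjusted p = 1.45e-06 in the authors' deposited table), the one call among 6 neighbours. Around Neurog2, which fell, 2 of 12 neighbours were called higher and 1 lower. These neighbours were named after their values were seen.

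The calls of the 8 factors depend on the null distribution. Each of the 6 calls is lost when the test statistic is referred to a t distribution with 6 degrees of freedom, where the smallest adjusted p was 0.0686, or to an empirical null, where it was 0.188. This is a property of the whole table: of all 18085 tested genes, 0 were called higher and 1 lower with the t distribution, and 59 and 25 with the empirical null. With 4 libraries per genotype and no values per library, no library could be left out.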

How the data were processed

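Polyadenylated RNA was sequenced from a TruSeq stranded library kit, per the labels' protocols. The submitters' processing notes name mm10, DESeq2 and DESeq. What else was used (aligner, counter, strand setting, annotation, versions) is not given in the sources used here. One table of the authors' comparison was used. Per the file headers, the signal it gives is each gene's average normalized count. Fold change and SE are log2 values, per the file headers. Their ratio was checked to equal the Wald score that the authors deposited. From that score the deposited p-value and its Benjamini-Hochberg adjustment were recomputed (largest relative gap 0.757%). Of 26229 genes, 18085 had an adjusted p and counted as tested, and 8135 had a p without one, all with a mean count of at most 2.99.

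Signs were turned to H2BE-KO over WT by the targeted gene. Intervals are the log2 fold change with a normal 95% interval of its SE. Exon lengths and coordinates are those of GENCODE M21 (GRCm38, the assembly of mm10), matched by Ensembl identifier for 26039 rows. Implied group means solve the mean and the fold change for 2 groups of equal size. The members and the lists were chosen with earlier results of these data known, so their counts are descriptions and no test was run over a list. List counts leave out the 8 factors. In each list, up to 4 called genes with the smallest adjusted p were named. Dll1, Notch1, Rbpj, Tcf3, Hey1, Nrarp, Nrp1, Gadd45g, Psenen, Mki67, Top2a, Sox9, Sox10, Sox11, Sox4, Ebf2 and Ebf3 were named after their values were seen. The calling functions were tested on simulated data with normal errors of the deposited SEs. That check cannot speak to the choice of null distribution, because it used the same normal null. The labels' biological replicates are not tied to animals. Scripts ran in Python 3.11.15 (pandas 2.3.3, scipy 1.17.1, numpy 2.4.6, matplotlib 3.10.9).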

Additional observations from a re-analysis of the deposited data

How the results depend on the processing

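Of the alternatives, centring on the median gene and removing a smooth trend on exon length and GC alter the fold changes. Directions of all 8 factors held in each. The other alternatives reuse the deposited fold changes, so directions could not change there. The median log2 fold change stayed between 0.88 and 1.05, with 0.88 for factors of mean count of at least 100. The counts of 5 higher and 1 lower were the same at adjusted p thresholds of 0.01 and 0.1, with adjustment over all genes with a p, after centring and after a smooth trend on exon length and GC was removed. With genes of mean count of at least 100, where 5 of the factors remain, 4 were called higher and 0 lower, since Neurog2, Hes1 and Hes5 are not among them. With a Bonferroni adjustment 3 were called higher (Hes1, Neurod2 and Bhlhe22) and 0 lower, and 7 and 2 of the other pathway genes. Referred to a t distribution (6 degrees of freedom) in place of the normal of DESeq2, 0 factors were called higher and 0 lower, and 0 and 0 pathway genes, while at an unadjusted p under 0.05 there were 5 and 1 factors; of all 18085 genes, 0 were called higher and 1 lower. With an empirical null (scale 1.95, where the normal has 1), 0 factors were called higher and 0 lower, and 1 and 0 pathway genes, with 4 and 0 factors at an unadjusted p under 0.05; of all genes, 59 and 25 were called. No paired analysis was possible because the table holds no values per library, and for the same reason no library was left out and no other count tool or normalization was run. Mean counts under 100 stand behind Hes1, Neurog2 and Hes5, and tested genes in that range had a median SE of 0.664.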
